A study of Homo sapiens with 6 samples.

Results

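The genes described here are 10 early-response genes: EGR1, EGR2 and EGR3, IER2, IER3 and IER5, KLF4 and KLF6, NR4A1 and SRF. Members were found as every array probe set (a group of probes that reports 1 transcript) that the platform annotation assigned to one of these symbols and to no other gene. This gave 19 probe sets for 9 of the 10 genes, out of 19775 genes measured by an unambiguous probe set. No probe set was assigned to EGR2, which was not analysed here. NR4A1 was too dim to test, which left 8 genes with a test.

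Total RNA was hybridised to 6 human Affymetrix arrays of 1 colour, 3 in a control group and 3 in a bevacizumab group. Each array held RNA from a subcutaneous tumour of U87-EV, a form of the established human glioblastoma line U87 whose suffix the labels do not explain, grown in female BALB/c SCID mice that were 6 to 8 weeks old when the cells were implanted in Matrigel. The controls received saline. The other group received bevacizumab, an antibody against human vascular endothelial growth factor A (VEGFA), at 10 mg/kg into the peritoneum at intervals of 3 days, from a tumour volume of 150 to 200 mm3 until the tumours were about 15 to 30 mm across. Each cohort began with 5 mice. SCID mice lack mature T and B cells but keep innate immune cells. The labels do not state that the arrays came from separate mice, so p-values measure the spread between arrays, which may be technical. The time between the last injection and collection was not given in the sources used here.

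Early-response genes are switched on within minutes of a signal, from factors that are already in the cell. In the classical route a growth factor receptor activates the ERK kinases, which phosphorylate ELK proteins that sit beside SRF on a short DNA element called the CArG box. Most of the genes described here then encode regulators themselves. The EGR and KLF proteins bind GC-rich DNA through zinc fingers, NR4A1 is an orphan nuclear receptor, and IER2 and IER5 are related proteins, whereas IER3 shares with them its rapid induction but not its sequence family. Growth factor signals, low oxygen and other stresses can all induce members of this group in tumour cells.

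The group did not move as a unit. After bevacizumab, IER3 and KLF6 were higher, while EGR3, IER2 and SRF were lower. EGR1 and IER5 had values of similar size below 0 that did not pass the test, and KLF4 overlapped between the groups. In the limma fit across all genes, 5 of the 8 tested members had an adjusted p under 0.05, 2 higher and 3 lower, against 19.1% of all 10233 genes tested (9.09% higher and 9.97% lower). The control and bevacizumab arrays did not overlap in 7 of the 8, against 41% of all genes tested. Of those 7, 5 had lower treated arrays and 2 had higher ones, against 22% and 19% of all genes. With arrays centred on their median, 1 member was higher and 4 were lower, beside 977 and 1233 of all genes tested. The median difference of the 8 was -0.65 on the log2 scale, beside -0.01 over all genes tested. The count of 5 was 2 without control 1, 3 without control 3 and 3 without bevacizumab 2. Over all genes tested, the count of 1950 was 578, 897 and 1075 in these settings.

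**Figure D1:**
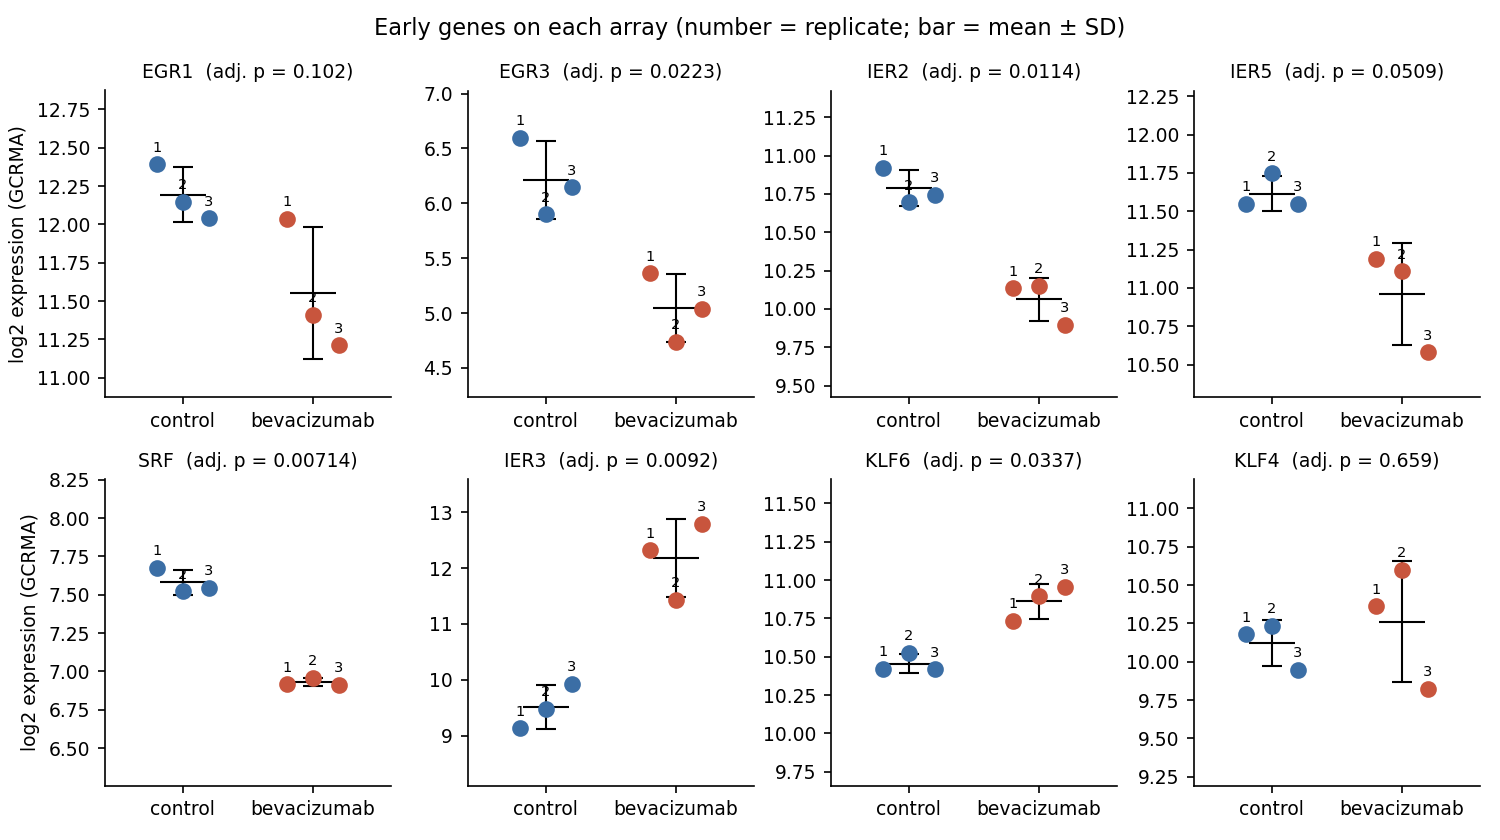
Deposited log2 expression values of the 8 tested early genes on each array, with the replicate number above each point and the mean ± SD of 3 arrays as a bar. The vertical axes differ between panels; SRF, IER2, EGR3 and IER3 show the clearest gaps between the groups, EGR1 almost touches on control 3 (12.04) and bevacizumab 1 (12.04), and KLF4 overlaps.

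The tumour markers and RNA quality bear on all of these values. All 6 markers of the U87 type (VIM, CD44, CHI3L1, FN1, NES and TNC) were above the filter, a mean log2 value of at least 4, and their mean level was 13.12 to 13.23 on the controls and 13.27 to 13.40 on the treated arrays. Of these markers CHI3L1 was higher (1.6, limma adjusted p = 0.0174) and NES lower (-1.18, adjusted p = 0.00725), and the other 4 did not pass. The glial markers GFAP, OLIG2, S100B, SOX2, PTPRZ1 and AQP4 were all under the filter. So were 6 of 8 endothelial markers, 6 of 7 measured macrophage markers and all 6 T and NK cell markers. All 6 fibroblast markers (COL1A1, COL1A2, DCN, LUM, PDGFRA and FAP) were above it and none passed. Their mean level was 12.48 to 12.66 on the controls and 12.43 to 12.80 on the treated arrays. The mean level of 6 mural cell markers was 6.80 to 6.88 after bevacizumab and 7.57 to 7.61 in controls. That gap came from RGS5 and ACTA2, which were lower, while PDGFRB and CSPG4 had differences of 0.30 and 0.16 that did not pass, and MYH11 and DES were under the filter. Host cells are mouse cells, and how far their RNA binds these human probes was not tested. For ACTB, the 3' control probe set minus the 5' one, a sign of RNA degradation, averaged 1.38 in controls and 1.81 after bevacizumab (exact permutation p = 0.2, the smallest possible being 0.1), with overlapping groups. For GAPDH the same value was -0.11, -0.11 and -0.14 on the controls and -0.06, -0.01 and 0.01 on the treated arrays. These groups did not overlap (difference 0.10; the exact permutation p was 0.1, as low as 3 against 3 can reach). When the ACTB value entered as a covariate 24 genes in all passed in limma, and 0 of the 8 members did (6 of them had an unadjusted p under 0.05, against 7 in the fit without it; over all genes the shares were 25.8% and 35.8%). The signs of the 8 members were those of the fit without it. The part of RNA quality in these results was not tested.

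SRF, the transcription factor that binds CArG boxes, was lower after bevacizumab with little spread. Its bright probe set read 7.67, 7.52 and 7.54 on controls 1, 2 and 3 and 6.92, 6.96 and 6.91 on bevacizumab 1, 2 and 3. All 3 treated arrays lay below every control, and the lowest control stood 0.56 above the highest treated array. The difference was -0.65 (SE 0.08, 95% interval -0.85 to -0.45, limma adjusted p = 0.00714), a level 1.57-fold lower. Its call held whichever of the 6 arrays was dropped. With the ACTB covariate the value was -0.59 (adjusted p = 0.0898). The other SRF probe set read 2.23 on all 6 arrays, the minimum of the whole table, so SRF rests on 1 probe set.

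EGR1, a zinc finger factor and a classical SRF target, was lower on its brighter probe sets without passing the test. The brightest read 12.39, 12.15 and 12.04 on the controls and 12.04, 11.41 and 11.21 on the bevacizumab arrays. Bevacizumab 1 stood at the level of control 3, with 0.0017 between them, and the other treated arrays were clearly lower. The difference was -0.64 (SE 0.23, 95% interval -1.20 to -0.08, limma adjusted p = 0.102; unadjusted p = 0.0305). Without bevacizumab 1 it was -0.88 (adjusted p = 0.0198). A second probe set gave 9.69, 9.57 and 9.50 against 9.31, 9.16 and 8.96, a difference of -0.44 (adjusted p = 0.0597 in the fit over single probe sets). The third, near the filter, read between 4.13 and 4.84 on all arrays with a difference of 0.03.

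The promoters of these genes are shown because SRF and its targets meet there. RefSeq start sites (GRCh38.p14) were available for 7 of the 9 measured members, in 9 windows from 250 bases before to 50 bases after the start. EGR3 and IER3 had no window in the promoter set used here, so no statement on motifs covers them. CArG boxes, searched on both strands, were found in 2 of the 9 windows, against 1.29% of the 35116 windows of all genes. These were windows of EGR1 and of SRF itself, with 2 boxes each. Both genes had treated arrays below all controls, SRF by 0.56 and past the threshold, EGR1 by 0.0017 and not past it. Treated arrays also lay below all controls in IER2 (by 0.54) and IER5 (by 0.36), whose windows hold no CArG box, and in 22% of all genes tested. The windows of KLF4 and KLF6, whose differences were positive, hold none either. Whether the box goes with the direction of a member was not tested, and sites outside these windows were not searched. The 150 bases before each start follow, 5' to 3' on the gene's strand, with the CArG boxes in capitals.
EGR1 (chr5:138465329-138465478, plus strand): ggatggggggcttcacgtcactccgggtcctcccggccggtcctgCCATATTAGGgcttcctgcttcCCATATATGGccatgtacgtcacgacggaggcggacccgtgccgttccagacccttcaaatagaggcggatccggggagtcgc
SRF (chr6:43171119-43171268, plus strand): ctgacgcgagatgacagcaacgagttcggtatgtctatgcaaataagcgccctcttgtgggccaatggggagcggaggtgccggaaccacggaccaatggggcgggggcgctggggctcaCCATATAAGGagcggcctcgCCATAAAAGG

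The boxes of EGR1 lie at -105 to -96 and -83 to -74 from the start, and those of SRF at -30 to -21 and -10 to -1. The SRF window belongs to the first of its 2 listed start sites, and the second holds none. A match describes letters only, and binding was not measured.

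**Figure D2:**
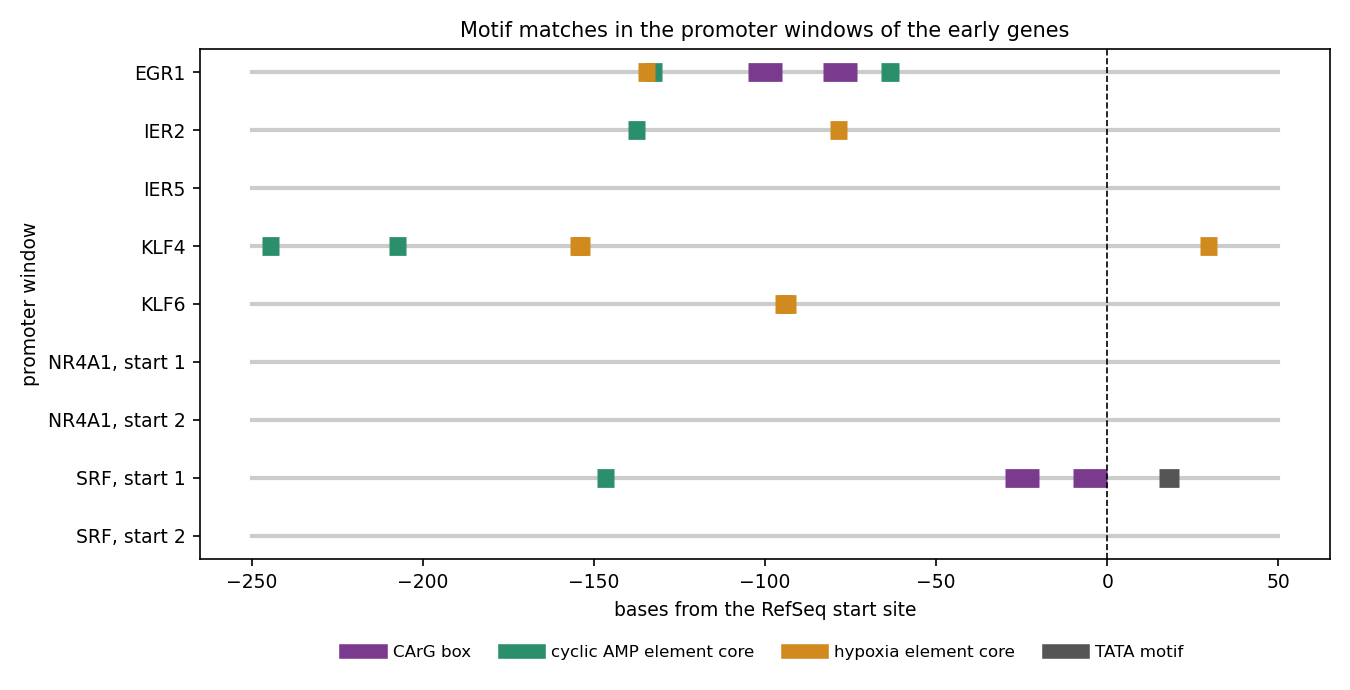
Motif matches in the 9 promoter windows of the 7 measured members with a RefSeq window, as distance in bases from the start site (dashed line). CArG boxes appear in EGR1 and the first start of SRF, cyclic AMP element cores in EGR1, IER2, KLF4 and SRF, and hypoxia element cores in EGR1, IER2, KLF4 and KLF6.

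EGR3, which belongs to the same zinc finger family as EGR1, had the most negative difference of the members. It read 6.60, 5.90 and 6.15 on controls and 5.36, 4.74 and 5.04 after bevacizumab. The groups did not overlap, and the spread within each was several times that of SRF. The difference was -1.17 (SE 0.23, 95% interval -1.73 to -0.61, limma adjusted p = 0.0223), a level 2.25-fold lower. The call was lost without control 1, control 3, bevacizumab 2 or bevacizumab 3 (adjusted p between 0.0583 and 0.0675), without the filter (adjusted p = 0.114) and with the ACTB covariate (-1.01, adjusted p = 0.190). EGR3 rests on 1 probe set.

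Of the 3 IER genes, IER3 and IER2 passed in opposite directions and IER5 did not pass. IER3 encodes a stress-inducible protein that modulates cell survival and ERK signalling. It read 9.13, 9.48 and 9.93 on the controls and 12.32, 11.43 and 12.79 after bevacizumab. Every treated array exceeded every control, by at least 1.5. The difference was 2.67 (SE 0.38, 95% interval 1.75 to 3.59, limma adjusted p = 0.0092), a level 6.35-fold higher, and ranked 79 of 10233 by size. Its call held whichever of the 6 arrays was dropped, with values from 2.36 to 3.04. Without the filter on dim genes the same difference had an adjusted p of 0.0644, and with the ACTB covariate it was 2.47 (adjusted p = 0.107).

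IER2, a nuclear protein of the early response, was lower. It read 10.92, 10.70 and 10.74 on controls and 10.14, 10.15 and 9.90 after bevacizumab. The treated arrays lay together below the controls, with 0.54 between the groups. The difference was -0.73 (SE 0.11, 95% interval -1.0 to -0.45, limma adjusted p = 0.0114), a level 1.65-fold lower. It missed the threshold without control 1 (-0.66, adjusted p = 0.0510) and with the ACTB covariate (-0.73, adjusted p = 0.108).

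IER5, which binds the phosphatase PP2A and acts on the heat shock factor HSF1, read 11.55, 11.75 and 11.55 on controls and 11.19, 11.11 and 10.58 after bevacizumab. The groups were separate and bevacizumab 3 stood lowest. The difference was -0.66 (SE 0.18, 95% interval -1.09 to -0.22, limma adjusted p = 0.0509), just outside the threshold. It passed with arrays centred on their median, with a filter at 6, with a mean-variance trend, with the mean of probe sets, and without bevacizumab 1 or bevacizumab 3, while its sign was the same in all 15 alternatives. IER2 and IER5 each rest on 1 probe set, as IER3 does.

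The KLF members had small values above 0. KLF6, a zinc finger factor described as a tumour suppressor, read 10.42, 10.53 and 10.42 on controls and 10.74, 10.90 and 10.96 after bevacizumab on its brightest probe set. The groups were separate by 0.21. The difference was 0.41 (SE 0.09, 95% interval 0.18 to 0.64, limma adjusted p = 0.0337), a level 1.33-fold higher. The other tested KLF6 probe sets gave 0.29, 0.13 and 0.08 and did not pass in the fit over single probe sets, so all 4 had the same sign but 1 passed. The call was also lost with the mean of the probe sets (0.19, adjusted p = 0.113), with centred arrays (0.37, adjusted p = 0.0548), without the filter (adjusted p = 0.0721), with the ACTB covariate (0.49, adjusted p = 0.135), and without any array other than bevacizumab 1.

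KLF4, a zinc finger factor of stem and epithelial cells, read 10.18, 10.24 and 9.95 on controls and 10.36, 10.60 and 9.83 after bevacizumab. Bevacizumab 2 was the highest array and bevacizumab 3 the lowest, so the groups overlapped. The difference was 0.14 (SE 0.21, 95% interval -0.37 to 0.65, limma adjusted p = 0.659), an interval that allows a change in either direction. Without bevacizumab 2 the sign turned (-0.03). Its second probe set read between 4.79 and 5.48 on controls and between 5.31 and 6.36 after bevacizumab, with bevacizumab 2 again the highest (difference 0.47, adjusted p = 0.370).

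**Figure D3:**
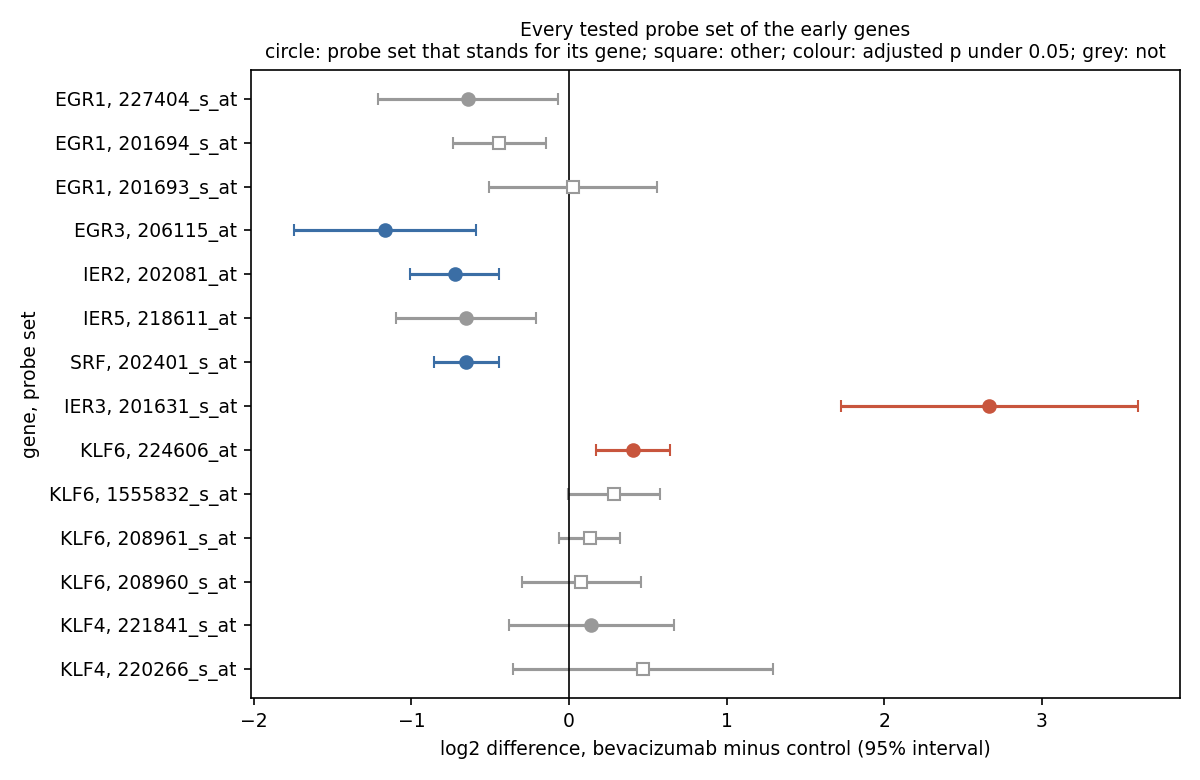
Log2 difference of bevacizumab minus control for each of the 14 tested probe sets of the early genes, with 95% intervals from the fit over 18475 single probe sets. Coloured points have an adjusted p under 0.05: IER3 and 1 of 4 KLF6 probe sets lie above 0, and EGR3, IER2 and SRF lie below it.

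NR4A1, the orphan receptor, was not measurable on these arrays. Its 3 probe sets read at most 3.87, 2.78 and 2.39, with no more than 0.09 between any 2 arrays of a probe set. All were under the filter, where values have no order, so no level and no difference is given. The remaining dim probe sets were 1 of KLF6 and 1 of SRF. In all, 14 of the 19 probe sets were tested and 5 passed, against 15.4% of the single probe sets.

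The promoters of IER2 and KLF6, genes that moved in opposite directions, both hold the hypoxia element core ACGTG, which occurs on 1 strand or the other in 21.4% of all windows. The 150 bases before each start are shown with that core in capitals. In KLF6 the capitals cover CACGTG, which reads as the core on both strands.
IER2 (chr19:13150261-13150410, plus strand): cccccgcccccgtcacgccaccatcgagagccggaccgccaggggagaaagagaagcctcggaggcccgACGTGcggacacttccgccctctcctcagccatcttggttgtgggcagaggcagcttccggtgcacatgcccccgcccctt
KLF6 (chr10:3785210-3785359, minus strand): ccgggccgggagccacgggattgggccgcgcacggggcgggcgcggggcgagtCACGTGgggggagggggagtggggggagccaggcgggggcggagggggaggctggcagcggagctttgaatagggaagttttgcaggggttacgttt

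This core was also present in KLF4 and EGR1, which makes 4 of the 9 windows. It did not separate the members with a window by direction, and EGR3 and IER3 had none. Of the other motifs searched, the cyclic AMP element core TGACG was found in 4 of the 9 windows, each of a different member, beside 24.6% of all windows. TATAAA was found in 1 of the 9, that of the first SRF start, beside 11.5%. There it begins 15 bases past the start, on the opposite strand. The EGR motif GCGTGGGCG (0.795% of all windows) and the AP-1 motif TGACTCA (4.95%) were found in none of the 9 windows.

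Of 27 tested genes on a list of further immediate-early genes, 12 were higher, 1 was lower and 14 did not pass by the limma test, with a median of 0.45. The 13 are 48.1% of the list, beside 19.1% of all genes tested. Whether this list differs from the members was not tested. The NF-kB cofactor gene NFKBIZ rose by 1.61 (SE 0.19, adjusted p = 0.00609), the AP-1 genes JUN and JUNB by 0.66 and 0.94, and the stress factor gene ATF3 by 4.19 (2.06 with the mean of its probe sets). CCN2, a matrix signalling gene also known as CTGF and named after its value was seen, fell by 1.09 (adjusted p = 0.0197). FOS, the partner of JUN in AP-1 and likewise named after its values were seen, read between 3.11 and 4.03 and was under the filter. The count of 13 was 4, 3 and 7 without control 1, 2 or 3, 7 without bevacizumab 2, 3 without the filter and 0 with the ACTB covariate (13 at an unadjusted p under 0.05). Over all genes the count of 1950 was 578, 558 and 897 without these controls and 1075 without bevacizumab 2. It was 598 without the filter and 24 with the ACTB covariate. JUNB lost its call without control 1 or control 2, and CCN2 without control 1, control 2 or bevacizumab 3.

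**Figure D4:**
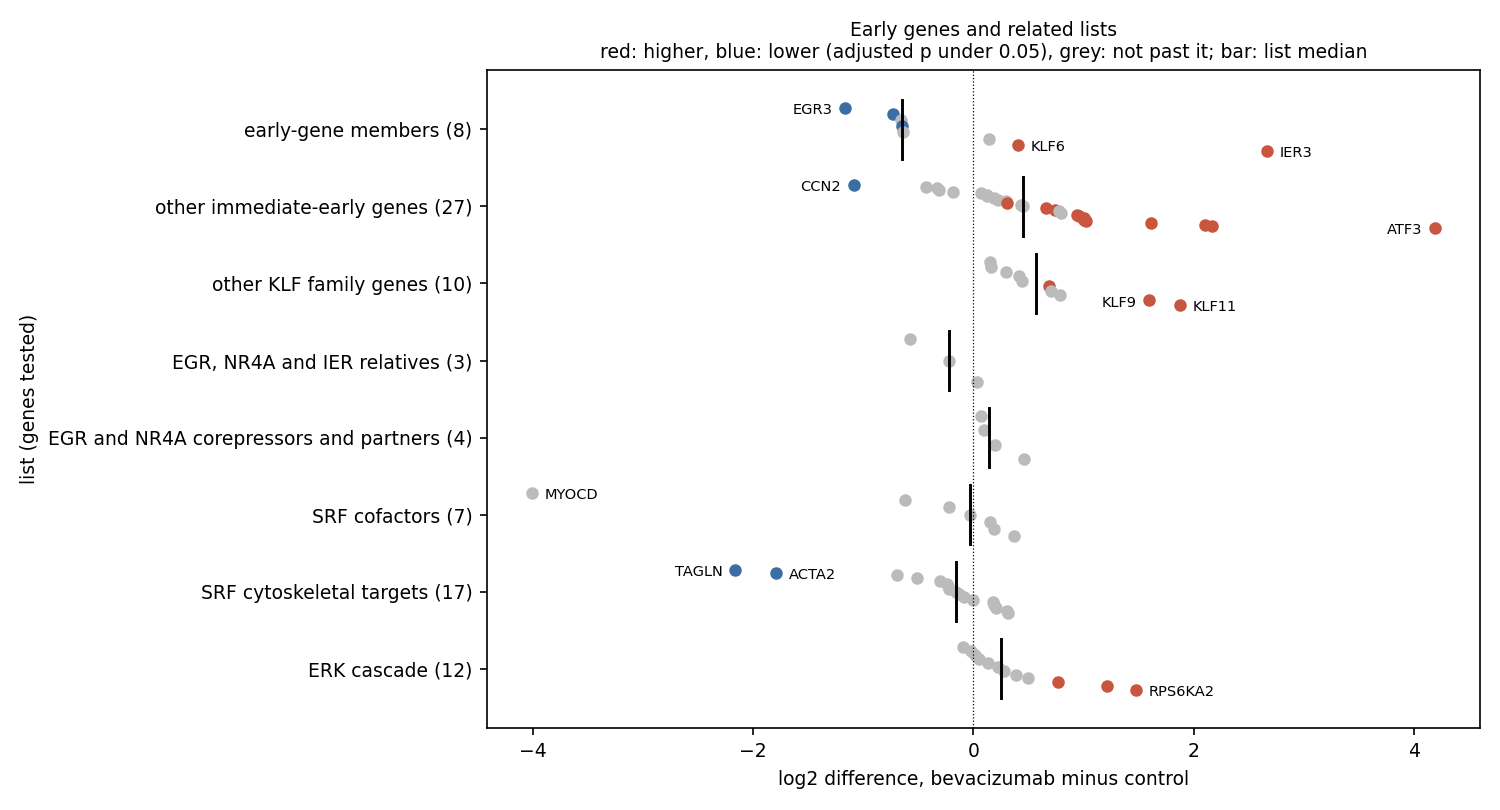
Log2 difference of bevacizumab minus control for each tested gene of the early-gene members and 7 related lists, with list medians as bars. The members spread to both sides of 0 around a median of -0.65, and 12 of 27 other immediate-early genes and 3 of 10 other KLF genes were higher.

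Relatives of the members by family were fewer. Of 10 other KLF genes tested, 3 (30%, beside 19.1% of all genes) were higher and none was lower by limma. At an unadjusted p under 0.05 there were 0 lower and 5 higher, beside 35.8% of all genes in either direction. On the brightest probe set of each gene all 10 differences were above 0 (median 0.56). Of all tested probe sets, 3 of 6 had that sign for KLF12, 1 of 2 for KLF13 and 4 of 5 for KLF7. For the other KLF genes tested, every tested probe set had it. KLF9, a hormone-responsive factor, rose by 1.59 (SE 0.21, limma adjusted p = 0.00809), KLF11 by 1.88 and KLF3 by 0.69, while KLF5 had a difference of 0.79 (adjusted p = 0.0530) and passed under 4 of the 15 alternatives, without bevacizumab 2 among them (1.03, adjusted p = 0.0159). With the mean of the probe sets KLF9 was 0.71, KLF11 1.02 and KLF3 0.26, where KLF3 missed the threshold (adjusted p = 0.229). Dropping any 1 control left 1 KLF gene past the threshold, and without the filter limma gave 0 (4 at an unadjusted p under 0.05). Over all genes 578, 558 and 897 passed without control 1, 2 or 3. Without the filter 598 passed, and 17.3% had an unadjusted p under 0.05. With the ACTB covariate 1 KLF gene passed, of 24 genes in all. KLF11 missed the threshold when any 1 control was dropped, and KLF3 without any array other than bevacizumab 1. Among close relatives of the EGR, NR4A and IER genes none of 3 tested passed with limma, beside 19.1% of all genes. At an unadjusted p under 0.05 there were 0, beside 35.8% of all genes. NR4A2, a sister receptor of NR4A1, had a difference of -0.58 (adjusted p = 0.171), with 2 of its 3 tested probe sets below 0. It passed under 1 of the 15 alternatives, without bevacizumab 1 (-0.83, adjusted p = 0.0493). With the mean of its probe sets it was -0.31 (adjusted p = 0.394). WT1, which binds EGR-type sites, had -0.22 and IER5L 0.03. The last 2 changed sign under an alternative.

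Partners of the members did not pass the test. None of 4 tested corepressors and partners did with limma, beside 19.1% of all genes tested. Of the 4, 1 had an unadjusted p under 0.05, beside 35.8% of all genes. NAB2, which represses EGR proteins, had a difference of 0.46 (adjusted p = 0.0766) and NAB1 0.19 (negative with the mean of its probe sets), and the NR4A partners RXRB and RXRA had 0.10 and 0.07, the latter below 0 without control 3. None of 7 SRF cofactors passed with limma and 2 had an unadjusted p under 0.05, beside the same shares of all genes. With a mean-variance trend 1 passed. MYOCD, the smooth muscle cofactor of SRF, read 9.78, 8.99 and 10.66 on controls and 8.33, 5.76 and 3.33 after bevacizumab. Its treated arrays were below the controls but far apart from each other, and the difference was -4.01 (SE 1.23, adjusted p = 0.0699). It passed without bevacizumab 1 (-5.26), with centred arrays, with a filter at 6 and with a mean-variance trend. FHL2 had -0.62 (adjusted p = 0.0766), the actin-regulated cofactor MRTFA 0.37 and the ERK target ELK1 0.15. MRTFA passed without bevacizumab 1 (0.55, adjusted p = 0.0156), with the sign opposite to that of MYOCD, so 2 of the 7 cofactors passed there. MRTFA was dim, with a mean level of 5.28. It read 5.10, 5.10 and 5.09 on controls and 5.10, 5.65 and 5.65 on bevacizumab 1, 2 and 3. The array left out thus stood at the level of the controls.

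Of 17 tested cytoskeletal targets of SRF, 2 were lower and none higher by limma (at an unadjusted p under 0.05 there were 5 lower and 0 higher, beside 35.8% of all genes in either direction), with a median of -0.16. The 2 are 11.8% of the list, beside 19.1% of all genes. TAGLN, a smooth muscle actin-binding protein, fell from 8.74 ± 0.17 to 6.58 ± 0.12 (SD, n = 3 each), a difference of -2.16 (SE 0.12, adjusted p = 0.0014). ACTA2, smooth muscle actin, fell by 1.79 (SE 0.18, adjusted p = 0.00407; -0.81 with the mean of its probe sets). Both calls held whichever of the 6 arrays was dropped, and TAGLN passed with the ACTB covariate too. TPM2 and TPM1 had differences of -0.70 and -0.51 (adjusted p = 0.0509 and 0.0534), and 5 genes passed with centred arrays. ACTA2 is also a mural marker, and RGS5, the other mural marker that passed, fell by 2.85 (adjusted p = 0.0022), while PDGFRB and CSPG4 on the same list lay above 0 without passing. The part of mural cells in the values of SRF and its targets was not tested, and in a bulk tumour fewer cells of a type and less RNA per cell cannot be told apart.

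Upstream of the early genes, 3 of 12 tested ERK cascade genes were higher and none lower by limma (median 0.25; 5 higher and 0 lower at an unadjusted p under 0.05). The 3 are 25% of the list, beside 19.1% of all genes, and the 5 stand beside 35.8% of all genes. EGFR, the epidermal growth factor receptor, rose by 1.22 (SE 0.16, adjusted p = 0.00767; 0.50 with the mean of its probe sets) and MAP2K1, the kinase that activates ERK, by 0.77 (adjusted p = 0.0078). RPS6KA2, a kinase below ERK, rose by 1.47 (adjusted p = 0.0216), which missed the threshold when any 1 control, or bevacizumab 2, was dropped. The adaptor gene SOS1 had a difference of 0.50 (adjusted p = 0.0704). RNA levels do not measure the activity of these kinases.

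For each member that passed, the 3 genes with the nearest profile were found among the 10233 tested, by the root mean square of the log2 differences between profiles centred over the 6 arrays. SRF was nearest to SNRPF, a core splicing protein gene (0.02), SKA2, a kinetochore gene (0.04), and QRSL1 (0.04). IER2 was nearest to the respiratory complex I gene NDUFS7 (0.05), the DNA repair gene BRCA1 (0.05) and the nuclear pore gene NUP93 (0.05). EGR3 was nearest to THBS1, which encodes the matrix protein thrombospondin 1 (0.08), then to NES, the intermediate filament nestin (0.12), and RANBP3L (0.15). IER3 was nearest to the neutrophil chemokine gene CXCL8 (0.20), the granulocyte growth factor gene CSF3 (0.21) and the nuclear receptor gene RORA (0.24). KLF6 was nearest to KLHL2 (0.04), GLRB (0.04) and TMEM42 (0.05). The distances cover both the difference between groups and the spread within them. The difference was 2.43 for CXCL8, 2.25 for CSF3 and 2.65 for RORA beside 2.67 for IER3.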

How the data were processed

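The deposited table holds log2 expression values that the authors made with GCRMA, a method that subtracts sequence-dependent background, brings the arrays to 1 distribution and gives 1 value per probe set. Software listed by the submitters' processing notes is GCOS 1.1.1.052, beside GCRMA with no version. The log2 scale was inferred from the values, which run from 2.23 to 15.99. Scanner files were not used here. Symbols came from the platform annotation, updated through gene IDs (41043 of 41097 single-gene probe sets matched), and promoters from RefSeq (GRCh38.p14). Each gene was represented by its brightest probe set on average, and 10233 of 19775 genes had a mean of at least 4 and were tested. The comparison used limma 3.58.1 under R 4.3.3 (lmFit, eBayes, no covariate, two-sided), with Benjamini-Hochberg adjustment over all genes tested and a threshold of 0.05. The code was checked on simulated data. Differences are bevacizumab minus control. Depth does not apply to arrays; their number limits the precision.

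The members and lists were chosen with earlier results of these data known. The text names every member, up to 4 genes of each list by smallest p, and the 3 nearest profiles of each member that passed. Arrays with the same replicate number did not deviate together (correlations of -0.05, -0.01 and -0.05 over genes), so no pairing was used. No scan date or batch was given in the sources used here.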

Additional observations from a re-analysis of the deposited data

How the results depend on the processing

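Each result was recomputed under 15 alternatives. The 5 members past the threshold became 2 without the filter on dim genes (a fit that also tests the 9542 dim genes, in which 7 listed pathway genes and 598 genes in all passed, beside 21 and 1950) and 0 with the ACTB covariate (2 listed genes, 24 in all, by limma; 6 members had an unadjusted p under 0.05). Leaving out 1 array gave 2 to 7 members, 8 to 25 listed genes and 558 to 2074 genes in all. With the replicate block 4 members, 14 listed genes and 904 genes passed, KLF6 losing its call (adjusted p = 0.0955). The sign of every tested member was the same throughout, except KLF4 without bevacizumab 2 (-0.028; 0.36 at the other end of the left-out arrays). Among other named genes that did not pass, signs turned for NAB1 and IER5L with the mean of the probe sets (-0.14 and -0.23), IER5L with centred arrays (-0.0067), and RXRA and WT1 without control 3 (-0.020 and 0.060; -0.020 to 0.17 and -0.37 to 0.060 over the left-out arrays). The causes were not tested. With a filter at 6, EGR3 and some dimmer named genes were not tested. With the mean of all probe sets of a gene, dim ones included, SRF was -0.33 (its other probe set is constant), NES -0.66, THBS1 -0.70, NDUFS7 -0.37, NUP93 -0.37 and RORA 1.67, all past the threshold.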
